A study of Mus musculus with 8 samples.

Results

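The genes described are 10 core pluripotency factors: Pou5f1, Sox2, Nanog, Sall4, Lin28a, Lin28b, Utf1, Dppa4, Dppa2 and L1td1. They were taken by symbol from a table of read counts with 52636 mouse gene identifiers. All 10 were found, and 10 of 10 passed the filter on low counts that kept 18321 genes for testing. RNA was sequenced from mouse epiblast at embryonic day 5.5 in 8 libraries, each made from 7 ng of RNA of a pool of 10 epiblasts. Every library, controls included, came from embryos of genotype Sox2Cre;CRAFR26, in which a Cre recombinase driven by Sox2 regulatory sequence acts in the epiblast and a tamoxifen-inducible RAF construct switches on the kinase ERK. The construct was placed in embryonic stem cells that were injected into morulas to found the line, and the labels name 2 clones, clone 4 and clone 8. In the treated groups the embryos were cultured with 250 nM 4-hydroxytamoxifen (4OHT) for 4 h, and in the control groups with the ethanol vehicle. Each clone gave 2 vehicle and 2 4OHT libraries. The titles of the vehicle libraries give 0 h while their treatment label gives 4 h of vehicle. They are taken here as cultured controls; had they been collected uncultured, the time in culture would be part of every 4OHT difference. The extraembryonic layers were removed by hand before RNA extraction. Nothing in the labels says that the pools of a clone came from separate litters, so p-values measure only the spread between these pools.

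Pluripotency is the capacity of a cell to form all tissues of the body, and the epiblast keeps it until gastrulation. OCT4 (the product of Pou5f1), SOX2 and NANOG are DNA-binding proteins that occupy many enhancers together, including their own; OCT4 and SOX2 bind side by side at a composite element. SALL4 and UTF1 are nuclear factors of the same network, DPPA2 and DPPA4 are chromatin proteins that bind each other, LIN28A and LIN28B are RNA-binding proteins that block maturation of the let-7 microRNAs, and L1TD1 is an RNA-binding protein derived from a transposable element. Around implantation, when pluripotent cells leave the naive state, Nanog RNA falls while Pou5f1 stays on. ERK signalling promotes this exit, and the comparison asks how these genes respond to 4 h of it.

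The 3 factors that are best known to bind one another's promoters differ in the sequence before their starts. For Nanog, Pou5f1 and Sox2 the 250 bases before the RefSeq transcription start are shown (GRCm38.p6, plus strand, 5′ to 3′), with motif matches in capitals, because these are the members whose RNA is compared most closely below.
Nanog, chr6:122707239-122707488: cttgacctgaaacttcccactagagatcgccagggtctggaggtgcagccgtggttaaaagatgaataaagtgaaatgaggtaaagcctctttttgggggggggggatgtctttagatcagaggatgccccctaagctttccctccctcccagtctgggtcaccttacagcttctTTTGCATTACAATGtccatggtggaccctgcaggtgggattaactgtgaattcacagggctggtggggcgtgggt
Pou5f1, chr17:35505782-35506031: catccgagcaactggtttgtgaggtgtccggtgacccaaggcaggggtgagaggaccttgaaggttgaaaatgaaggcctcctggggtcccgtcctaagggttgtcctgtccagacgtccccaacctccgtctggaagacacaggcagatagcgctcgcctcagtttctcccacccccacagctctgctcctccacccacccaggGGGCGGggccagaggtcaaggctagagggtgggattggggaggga
Sox2, chr3:34649745-34649994: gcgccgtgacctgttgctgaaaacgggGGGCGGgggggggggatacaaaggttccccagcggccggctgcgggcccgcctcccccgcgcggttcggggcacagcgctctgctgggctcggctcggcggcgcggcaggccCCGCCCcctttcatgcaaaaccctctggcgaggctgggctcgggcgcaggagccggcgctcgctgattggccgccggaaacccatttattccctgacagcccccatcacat
The Nanog window holds the composite OCT-SOX element TTTGCATTACAATG from 75 to 62 bases before the start, and its last letters are also a match to the SOX motif. The searched composite, TTTGCAT followed by any base and ACAATG on either strand, occurs in 2 of 32851 RefSeq promoter windows of this length (0.00609%), and both belong to Nanog, whose 2 annotated starts lie close together. A SOX motif alone, ACAATG on either strand, is in 10.7% of windows. Pou5f1 has neither in this window and holds 1 GC box, GGGCGG, from 45 to 40 bases before the start. Another RefSeq window of Pou5f1, chr17:35508557-35508806, not shown, holds a SOX match, ACAATG, from 158 to 153 bases before its start. Sox2 holds 2 GC boxes, 1 per strand, in a window that is 72.0% G and C with 27 CpG, where the median window has 52.4% and 6 CpG. GC boxes are in 32.7% of all windows. The ETS motif CCGGAAGT, bound by transcription factors that ERK phosphorylates, was in 2.88% of windows and in none of the windows of the 7 members with an entry. The octamer ATTTGCAT was in 1.6% of windows.

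The libraries held 33.3 to 38.0 M counts with vehicle (M stands for mega) and 56.4 to 72.5 M with 4OHT, so depth moved with treatment. The share of counts in 90 ribosomal protein genes was 7.1% to 10.6% with vehicle and 5.43% to 6.48% with 4OHT. The mitochondrial share was 1.35% and 1.19% in 4OHT clone 8, 0.470% and 0.619% in vehicle clone 8, and 0.205% to 0.417% in the 4 libraries of clone 4. As readouts of the construct, the ERK target Egr1 was at 5.77 to 18.2 counts per 1 M counts (CPM) with vehicle and 55.4 to 379 CPM with 4OHT, and Dusp4, a phosphatase induced by ERK, at 33.4 to 49.7 and 57.1 to 107 CPM; neither range overlapped. Egr1 and Dusp4 belong to a list of 10 ERK response genes. Of that list Egr1, Fos, Dusp6 and Spry4 passed the test of 4OHT against vehicle in clone 8, and Dusp4 did not. None passed it in clone 4 or over both clones. With 4OHT all 10 were higher in clone 8, while in clone 4 7 were higher and 3 lower. Fos was among the lower ones in clone 4, at 16.4 to 19.8 CPM with vehicle and 10.5 to 12.5 CPM with 4OHT. All 8 epiblast markers were expressed, with summed levels of 4704 to 5776 CPM, and none passed the test in any comparison. The dissection left RNA of the neighbouring layers. The 18 markers of visceral endoderm summed to 980 to 4828 CPM and the 12 of extraembryonic ectoderm to 529 to 1403 CPM; defining markers of both, Amn at 54.5 to 339 CPM and Elf5 at 16.4 to 95.3 CPM, were present in every library. In pools of tissue, fewer cells of a type and less RNA per cell cannot be told apart.

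**Figure D1:**
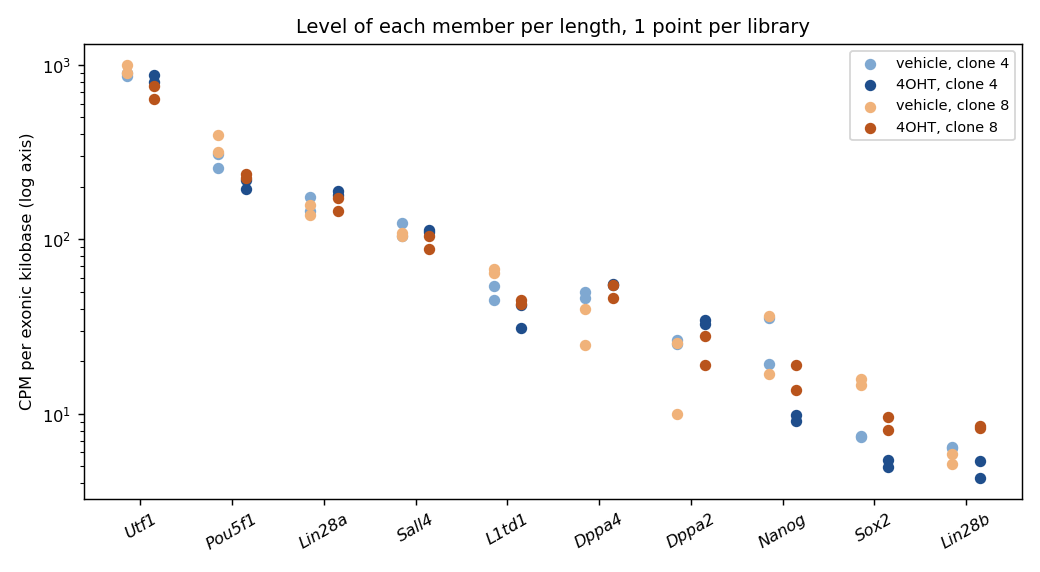
CPM per exonic kilobase (log axis) of each member, ordered by mean, with 1 point per library and vehicle drawn left of 4OHT. Utf1, Pou5f1, Lin28a and Sall4 form separate steps; from L1td1 to Lin28b each gene's range overlaps the next.

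On the scale of CPM per kilobase of annotated exon, which allows levels of different genes to be compared, Utf1 was the most abundant member at 843 ± 110 (SD, n = 8 libraries). Pou5f1 followed at 269 ± 66.2, Lin28a at 162 ± 18.6 and Sall4 at 107 ± 10.0, and each of these ranges lay clear of the next. L1td1 at 48.8 ± 12.2, Dppa4 at 46.5 ± 10.3, Dppa2 at 25.2 ± 7.80, Nanog at 19.9 ± 10.5, Sox2 at 9.19 ± 4.05 and Lin28b at 6.28 ± 1.48 overlapped their neighbours in the order. Utf1 and Pou5f1 were thus far above Sox2, the partner of OCT4, which ranked at percentile 61.7 of tested genes by mean log2 CPM against 98.8 for Pou5f1. With the longest transcript as the length, Pou5f1 rose to 444 and its range met that of Utf1, and Lin28b at 10.5 stood above Sox2.

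**Figure D2:**
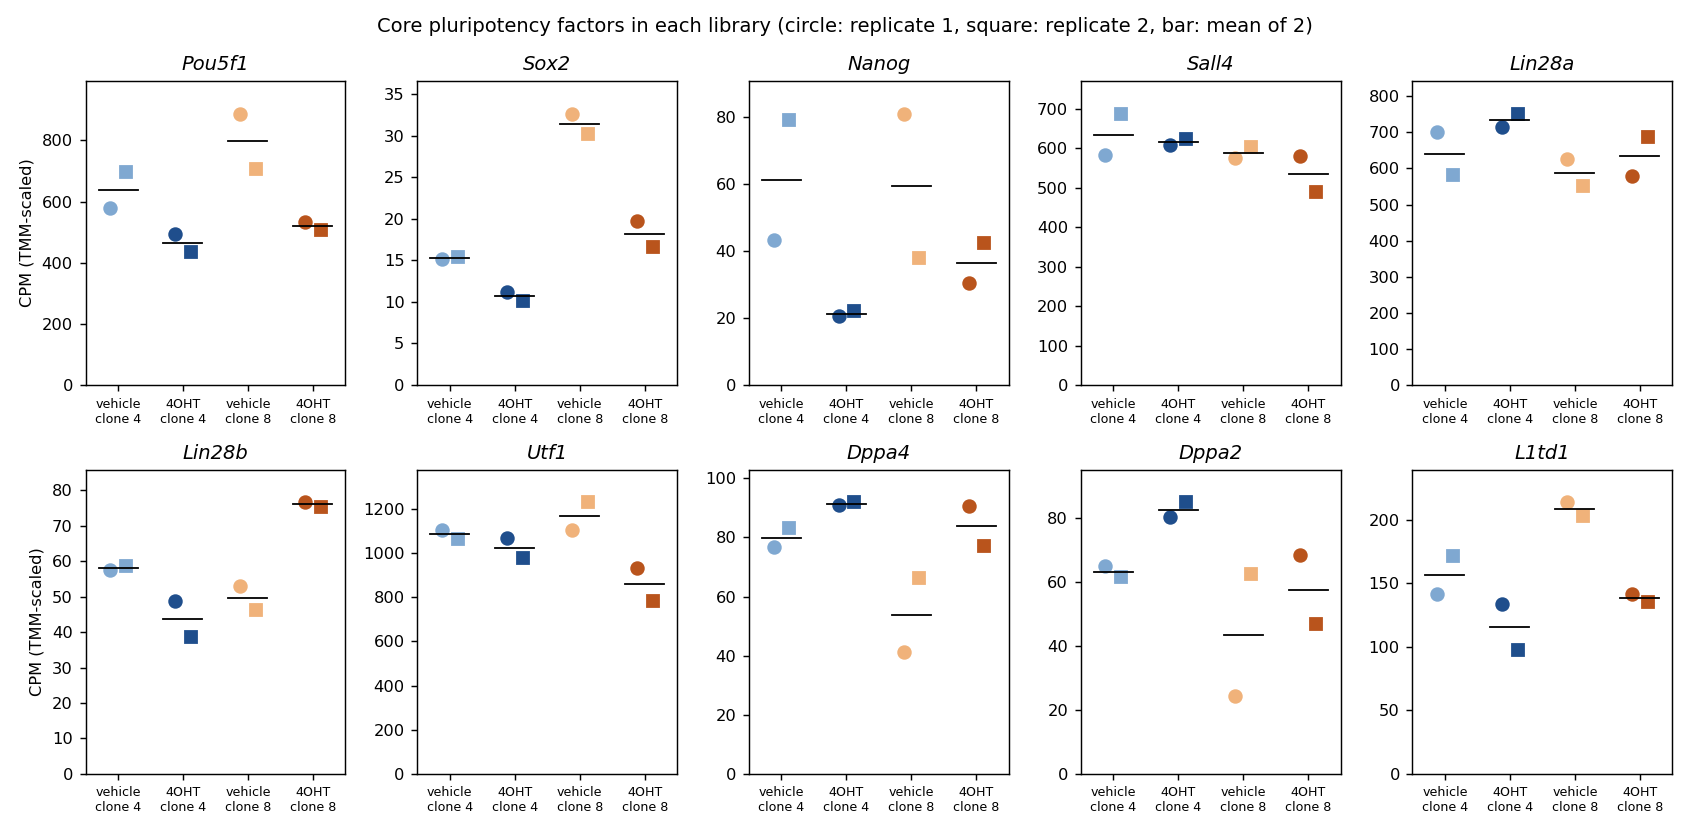
TMM-scaled CPM (vertical axis, from 0) of the 10 members in the 4 groups; circles are replicate 1, squares replicate 2 and bars the mean of 2. Pou5f1 and L1td1 lie lower with 4OHT in both clones, Sox2 is highest in vehicle clone 8, and Lin28b moves up in clone 8 and down in clone 4.

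Pou5f1 (chr17:35506018-35510772, plus strand) encodes OCT4, the POU-domain factor without which the pluripotent state is lost. In clone 4 it measured 579.7 and 695 CPM with vehicle and 495 and 435 CPM with 4OHT. In clone 8 it measured 888 and 707 CPM with vehicle and 533 and 507 CPM with 4OHT. All 4 4OHT libraries lay below all 4 vehicle libraries. In clone 8 Pou5f1 fell by 0.62 on the log2 scale (SE 0.14, adjusted p = 0.0210 by edgeR's quasi-likelihood test with Benjamini-Hochberg adjustment). The difference in clone 4 was -0.46 (SE 0.14, adjusted p = 0.294), which did not pass, and the response in clone 8 differed from that in clone 4 by -0.16 (SE 0.20, adjusted p = 0.664). An antisense gene, Gm19553, overlaps 317 exonic bases of Pou5f1 but had at most 4 counts in any library.

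Sox2 (chr3:34650405-34652461, plus strand) encodes the HMG-box partner of OCT4. It measured 15.1 and 15.4 CPM in vehicle clone 4 and 11.2 and 10.1 CPM in 4OHT clone 4. In clone 8 it measured 32.7 and 30.2 CPM with vehicle and 19.8 and 16.7 CPM with 4OHT. Within each clone the 4OHT libraries were lower without overlap, yet clone 8 with 4OHT stayed above clone 4 with vehicle. Sox2 fell in clone 8 by 0.79 on the log2 scale (SE 0.18, adjusted p = 0.0202). In clone 4 the difference was -0.52 (SE 0.18, adjusted p = 0.350). The responses differed by -0.27 (SE 0.25, adjusted p = 0.551). Sox2 lies inside an intron of the long RNA gene Sox2ot on the same strand; no exons are shared, and Sox2ot had 11 to 138 counts.

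Nanog (chr6:122707489-122714633, plus strand) encodes the homeodomain factor of the trio, known for uneven expression from cell to cell. Vehicle pools of the same clone differed: 43.3 and 79.0 CPM in clone 4, and 80.9 and 37.9 CPM in clone 8. With 4OHT it measured 20.4 and 22.1 CPM in clone 4 and 30.5 and 42.4 CPM in clone 8. In clone 4 both 4OHT libraries lay below both vehicle libraries; in clone 8 the groups overlapped, since 1 4OHT pool exceeded the lower vehicle pool. The difference was the largest in size of the 10 members in clone 4, -1.52 (SE 0.37), but its adjusted p was 0.173. In clone 4 the difference passed with DESeq2 and without the filter on low counts. In clone 8 it was -0.71 (SE 0.37, adjusted p = 0.211), and without the filter on low counts it passed (adjusted p = 0.00510). The SE of Nanog was the widest of the members, and the difference between the responses, 0.82 (SE 0.52, adjusted p = 0.379), did not pass. In clone 8 the value was -0.08 without vehicle replicate 1 and -1.18 without vehicle replicate 2. The processed pseudogenes Nanog-ps1 and Nanog-ps2 had at most 4 counts in any library.

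Utf1 (chr7:139943789-139945112, plus strand) encodes a chromatin-associated protein whose gene is a direct target of OCT4 and SOX2. It measured 1107 and 1066 CPM in vehicle clone 4, 1069 and 977 CPM in 4OHT clone 4, 1104 and 1231 CPM in vehicle clone 8, and 934 and 783 CPM in 4OHT clone 8. The clone 4 groups overlapped and the clone 8 groups did not. Utf1 fell in clone 8 by 0.44 on the log2 scale (SE 0.12, adjusted p = 0.0320). In clone 4 the difference was -0.09 (SE 0.11, adjusted p = 0.874), and the difference between clones was -0.36 (SE 0.16, adjusted p = 0.232).

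Sall4 (chr2:168748332-168767943, minus strand) encodes a zinc-finger factor that acts with OCT4 and NANOG. It had the lowest SD of the members relative to its mean. In clone 4 it was at 582 and 688 CPM with vehicle and 608 and 624 CPM with 4OHT; in clone 8 it was at 576 and 602 CPM with vehicle and 579.6 and 489.6 CPM with 4OHT. The groups overlapped in both clones. Its differences were -0.04 (SE 0.12, adjusted p = 0.952) in clone 4 and -0.14 (SE 0.12, adjusted p = 0.453) in clone 8. The antisense gene Gm14261, which overlaps 526 of its exonic bases, had 15 to 76 counts.

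Lin28a (chr4:134003330-134018841, minus strand), the main paralog of early embryos, measured 701 and 580.5 CPM in vehicle clone 4 and 715 and 752 CPM in 4OHT clone 4. In clone 8 it measured 626 and 551 CPM with vehicle and 579 and 687 CPM with 4OHT. The 4OHT libraries of clone 4 lay just above the vehicle ones and those of clone 8 overlapped them. Its differences were 0.19 (SE 0.13, adjusted p = 0.723) and 0.11 (SE 0.13, adjusted p = 0.616). The antisense gene Gm13061, overlapping 234 exonic bases, had 4 to 49 counts.

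Lin28b (chr10:45376620-45486395, minus strand) went up in one clone and was lower in the other. It measured 57.6 and 58.6 CPM in vehicle clone 4 against 48.8 and 38.6 CPM with 4OHT. In clone 8 it measured 53.1 and 46.4 CPM with vehicle against 76.7 and 75.4 CPM with 4OHT. Within each clone the vehicle and 4OHT groups did not overlap, and the 2 clone 8 4OHT pools were the highest of all 8 libraries. Lin28b rose in clone 8 by 0.61 on the log2 scale (SE 0.15, adjusted p = 0.0274). The difference in clone 4 was -0.41 (SE 0.15, adjusted p = 0.393). The responses of the clones differed by 1.02 (SE 0.21, adjusted p = 0.0451), and Lin28b was the only member to pass this test of the difference. Of all tested genes 2.83% passed it, 1.08% with a higher and 1.75% with a lower response in clone 8. The Lin28b call held without 4OHT clone 8 replicate 1 or replicate 2 (adjusted p = 0.0400 and 0.0411) and was lost whenever any other library of the 8 was left out (adjusted p 0.0884 to 0.191, difference 0.86 to 1.20).

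Dppa4 (chr16:48283733-48294237) and Dppa2 (chr16:48303908-48319723) are neighbours on the plus strand with 9670 bases between them, and their products form a complex on chromatin. Dppa4 measured 76.7 and 83.1 CPM in vehicle clone 4, 91.0 and 91.9 CPM in 4OHT clone 4, 41.2 and 66.2 CPM in vehicle clone 8, and 90.6 and 77.1 CPM in 4OHT clone 8. Dppa2 measured 64.9 and 61.4 CPM in vehicle clone 4, 80.0 and 84.8 CPM in 4OHT clone 4, 24.2 and 62.4 CPM in vehicle clone 8, and 68.2 and 46.7 CPM in 4OHT clone 8. Both were lowest in the first vehicle pool of clone 8, and their groups did not overlap except for Dppa2 in clone 8. For Dppa4 the differences were 0.19 (SE 0.20, unadjusted p = 0.360 by the same test) in clone 4 and 0.64 (SE 0.20, adjusted p = 0.0589) in clone 8. For Dppa2 they were 0.38 (SE 0.35, adjusted p = 0.807) and 0.41 (SE 0.36, adjusted p = 0.461). Neither gene passed in either clone, although Dppa4 passed in clone 8 with DESeq2 (adjusted p = 0.0158), without the filter on low counts (0.000884) and with library totals (0.0433). Without vehicle clone 8 replicate 1 the clone 8 value was 0.31 for Dppa4 and -0.15 for Dppa2; without vehicle clone 8 replicate 2 it was 0.99 (adjusted p = 0.0123) and 1.21 (adjusted p = 0.0199).

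L1td1 (chr4:98726734-98738480, plus strand) encodes an RNA-binding protein that associates with LIN28. It measured 142 and 171 CPM in vehicle clone 4 and 133 and 97.9 CPM in 4OHT clone 4. In clone 8 it measured 214 and 203 CPM with vehicle and 142 and 135 CPM with 4OHT. All 4 4OHT libraries lay below all 4 vehicle libraries, although the highest of them and the lowest vehicle pool nearly met. L1td1 fell in clone 8 by 0.59 on the log2 scale (SE 0.16, adjusted p = 0.0358). The difference in clone 4 was -0.44 (SE 0.16, adjusted p = 0.389), and the responses differed by -0.15 (SE 0.22, adjusted p = 0.719).

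**Figure D3:**
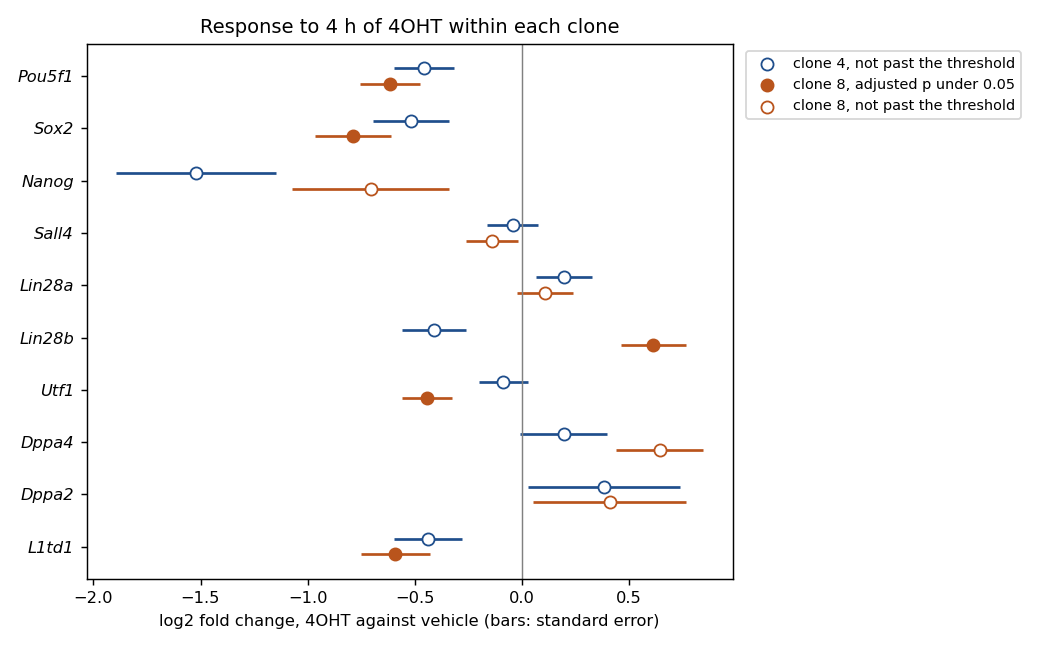
Log2 fold change of 4OHT against vehicle for each member, clone 4 in blue and clone 8 in orange; bars are the standard error and filled points have an adjusted p under 0.05. Lin28b is the only member with points on opposite sides of 0.

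Counted over the set, clone 8 had 5 of 10 members called, 4 lower (Pou5f1, Sox2, Utf1 and L1td1) and 1 higher (Lin28b), where 16.6% of all tested genes were called, 8% higher and 8.6% lower. The median log2 difference of the members in clone 8 was -0.29, beside 0.07 over all tested genes. In clone 4 none of the 10 passed, where 0.0382% of all genes did (7 genes, all higher). At an unadjusted p under 0.05, 5 members were lower in clone 4 (Pou5f1, Sox2, Nanog, Lin28b and L1td1), beside 3.68% of all genes lower and 9.9% in either direction. The groups of 8 members did not overlap in clone 4, 5 lower and 3 higher, beside 47.6% of all genes in either direction. In clone 8 the groups of 6 members did not overlap, beside 60% of all genes, a share at the background. The sign of the response was shared by the clones for 9 of 10 members, Lin28b being the exception. It was shared for 51.9% of all tested genes, and the 2 responses share no library. Some of these signs rest on values near 0, such as Sall4 at -0.04 (SE 0.12) and Utf1 at -0.09 (SE 0.11) in clone 4. Leaving out 1 library turned the sign of Sall4 in clone 4 (to 0.08). It did so for Lin28a (to -0.03) and Dppa2 (to -0.15) in clone 8. Members such as Dppa4 and Dppa2 also moved together, so the 10 are not independent. The clone 8 calls changed when single libraries were left out. Each such fit repeated the filter on low counts and the estimate of the spread, with 1 group down to 1 library. The part of the missing pool in a lost call can therefore not be told apart from these changes. Without vehicle clone 8 replicate 1, or without 4OHT clone 8 replicate 2, none of the member calls held. Pou5f1 was then at -0.47 and -0.59, and Sox2 at -0.76 and -0.68. In the first case the calls of the whole table were lost as well, while in the second other genes were still called. Pou5f1 and Sox2 kept the call when any other library was left out. Utf1 also lost it without vehicle clone 8 replicate 2 (-0.40, adjusted p = 0.0722), and L1td1 without that pool (-0.66, adjusted p = 0.0713) or 4OHT clone 8 replicate 1 (-0.62, adjusted p = 0.0608). Lin28b kept its clone 8 call only without 4OHT clone 4 replicate 1 or replicate 2; without any one of the other libraries its adjusted p ran from 0.0512 to 0.135. Utf1 and L1td1 also lost the call when counts were scaled to library totals, which moved the median of all genes in clone 8 from 0.07 to 0.19. With counts thinned to the smallest library total the same 5 members passed in clone 8, and Lin28b passed for the difference between clones. The mitochondrial share was higher in both 4OHT than in both vehicle libraries of clone 8, and its part in these calls was not tested.

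Over both clones together, with clone as an additive term, 0 of 10 members passed edgeR's quasi-likelihood test, as did 0.00546% of all genes (1 gene). The differences were -0.54 for Pou5f1 (SE 0.11, adjusted p = 0.117), -0.65 for Sox2 (SE 0.14, adjusted p = 0.119), -1.11 for Nanog (SE 0.29, adjusted p = 0.142) and -0.51 for L1td1 (SE 0.12, adjusted p = 0.127). At an unadjusted p under 0.05, 6 members differed, Dppa4 higher and Pou5f1, Sox2, Nanog, Utf1 and L1td1 lower, beside 16.9% of all genes. Pou5f1 and L1td1 were the 2 members whose 4 4OHT libraries did not overlap the 4 vehicle libraries, both lower; 5.58% of all genes were separated in that direction. The additive model assumes 1 response for both clones. When the mean of the within-clone responses was tested instead, Pou5f1, Sox2, Nanog and L1td1 passed (adjusted p = 0.0260, 0.0272, 0.0434 and 0.0363), with 5.8% of all genes, 3.35% lower. DESeq2 on the additive design called the same 4 (adjusted p = 0.00363, 0.000638, 0.00595 and 0.00961).

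The vehicle libraries alone compare the clones without ERK induction. Sox2 was the 1 member called, higher in clone 8 by 1.04 on the log2 scale (SE 0.18, adjusted p = 0.0208), where 8.37% of all genes were called, 4.06% higher. Pou5f1 at 0.32 (SE 0.14, adjusted p = 0.182) and L1td1 at 0.41 (SE 0.16, adjusted p = 0.138) were also higher in clone 8 without overlap. Dppa4 was lower at -0.57 (SE 0.20, adjusted p = 0.112) and Lin28b at -0.23 (SE 0.15, adjusted p = 0.405), again without overlap; such separation was seen in 58.9% of all genes. The remaining 5 ran from -0.54 for Dppa2 to 0.10 for Utf1. The Sox2 call was lost without vehicle clone 4 replicate 1, vehicle clone 4 replicate 2 or vehicle clone 8 replicate 1 (adjusted p = 0.139, 0.154 and 0.186), with values of 1.04, 1.06 and 0.99. The clone difference and the clone 8 response both use the vehicle pools of clone 8.

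**Figure D4:**
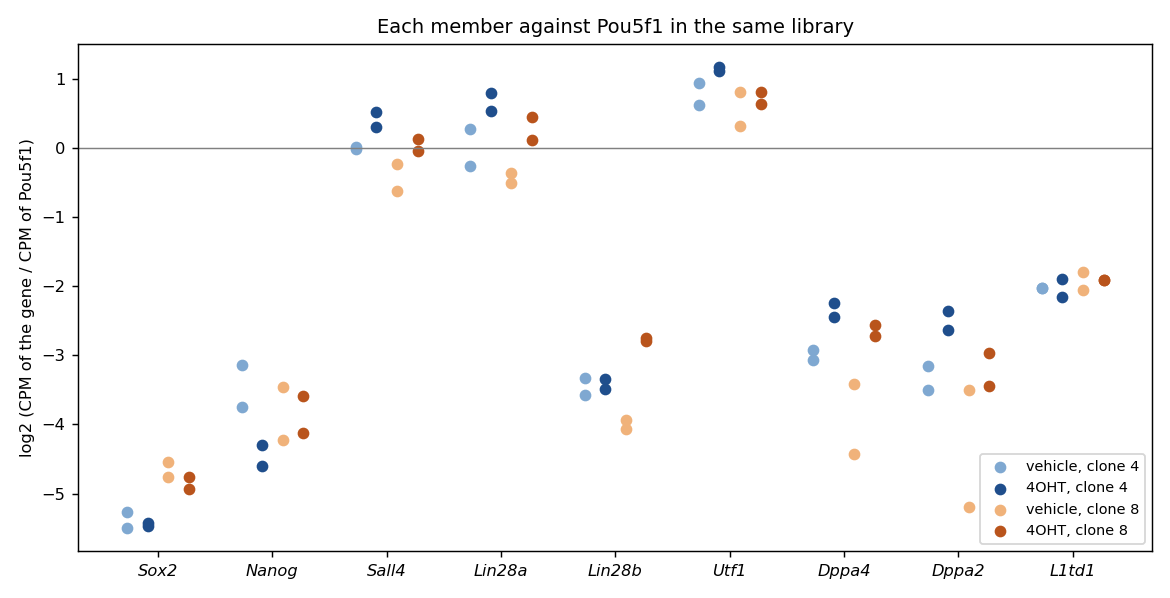
Log2 ratio of each member's CPM to that of Pou5f1 in the same library, 1 point per library; the grey line at 0 marks equal CPM. L1td1 points sit near -2 in all 4 groups, while Dppa4, Dppa2, Lin28a and Sall4 points sit higher with 4OHT in each clone.

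Ratios to Pou5f1 within a library do not depend on how libraries were scaled. The log2 ratio of L1td1 to Pou5f1 averaged -2.03 in vehicle clone 4, -2.02 in 4OHT clone 4, -1.93 in vehicle clone 8 and -1.91 in 4OHT clone 8. The mean thus moved by at most 0.02 with treatment within a clone. Single libraries lay farther apart, at -1.89 and -2.15 in 4OHT clone 4 and at -2.05 and -1.80 in vehicle clone 8. Sox2 against Pou5f1 differed more by clone than by treatment: clone 4 averaged -5.38 with vehicle and -5.44 with 4OHT, while clone 8 averaged -4.66 and -4.84. Lin28a was level with Pou5f1 in vehicle clone 4 (0.01) and stood above it with 4OHT (0.66); in clone 8 it went from -0.43 to 0.28. The ratio of Dppa4 went up by 0.65 in clone 4 and 1.29 in clone 8, and that of Dppa2 by 0.84 and 1.15. That of Sall4 went up by 0.41 and 0.46, although the differences of Sall4 itself were -0.04 and -0.14. The ratio of Nanog changed by -1.01 in clone 4 and -0.02 in clone 8. All these ratios share Pou5f1 as denominator, and they are differences of group means of 2 libraries, given without a test.

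Log2 CPM of Pou5f1 and of L1td1 ranked the 8 libraries identically (Pearson's r = 0.95, Spearman's rho = 1), Dppa4 went with Dppa2 (r = 0.92, rho = 0.81), and Pou5f1 ran opposite to Dppa4 (r = -0.84, rho = -0.88). The libraries share clones and treatments, so these are descriptions with no test. Pou5f1 also followed the share of ribosomal protein counts, with r = 0.98 and rho = 0.98 (r = 0.96 without the 2 libraries farthest from the median); the shares were 7.1% and 7.56% in vehicle clone 4, 10.6% and 8.69% in vehicle clone 8, 6.1% and 5.43% in 4OHT clone 4, and 6.34% and 6.48% in 4OHT clone 8. With that share L1td1 had r = 0.95 (0.93 without those 2), Dppa4 -0.92 (-0.66), Sall4 0.03 (0.17) and Lin28b 0.00 (0.50). Sox2 had 0.88 (0.58) and Utf1 0.54 (0.28). With the summed extraembryonic ectoderm markers Pou5f1 had r = -0.89 (-0.74 without the 2 libraries farthest on that axis), L1td1 -0.89 (-0.70) and Dppa4 0.86 (0.33). Sox2 had -0.86 (-0.27) and Utf1 -0.52 (0.05), so their values depended on those 2 libraries. With the summed visceral endoderm markers Lin28b had r = -0.78 and rho = -0.86 (r = -0.75 without the 2 libraries farthest on that axis). The other members ran from r = -0.39 for Nanog to 0.52 for Lin28a. With the library total Pou5f1 had r = -0.86 (-0.78) and L1td1 -0.86 (-0.69). The part of the ribosomal share in the responses was not tested. By Pearson's r over 8 libraries among 9160 genes of at least median level, the genes most like Pou5f1 were Eif3i (0.993), a translation initiation factor subunit, Rpl19 (0.991), a ribosomal protein, and Naca (0.989), which binds nascent chains at the ribosome. Those most like Sox2 were Ranbp10 (0.990), Tmem80 (0.988) and Sos1 (0.981), an activator of RAS. For Nanog they were Vgll4 (0.958), Lrrc42 (0.945) and Diexf (0.936), and without the 2 farthest libraries these fell to 0.894, 0.866 and 0.875.

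Lists of genes that work with the members were counted in the same fits. In clone 4 none of their genes passed (background 0.0382%). In clone 8, where 16.6% of all genes were called (8% higher, 8.6% lower), 5 of 15 partners and co-regulators of the factors passed, 2 higher and 3 lower, with a median of -0.19 beside 0.07 for all genes. Tcf7l1, a repressor of pluripotency genes downstream of WNT, fell by 1.25 (SE 0.17, adjusted p = 0.00834), Kdm1a, a histone demethylase, fell by 1.37 (SE 0.25, adjusted p = 0.0115) and Trim28, a corepressor, fell by 1.09 (SE 0.19, adjusted p = 0.0108). Hcfc1, a chromatin cofactor, rose by 0.73 (SE 0.13, adjusted p = 0.0117). Trim28 measured 320 and 254 CPM in vehicle clone 4, 345 and 268 CPM in 4OHT clone 4, 745 and 585 CPM in vehicle clone 8 and 348 and 278 CPM in 4OHT clone 8. Its high values were thus the 2 clone 8 vehicle pools. In the vehicle comparison Trim28 (1.21), Tcf7l1 (0.91) and Kdm1a (1.06) were higher and Hcfc1 (-0.69) lower in clone 8, all 4 called (adjusted p 0.0174 to 0.0354). Without vehicle clone 4 replicate 1 or vehicle clone 8 replicate 1, 0 genes of the whole table were called between the vehicle libraries, so these calls were lost.

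Of 14 target genes of OCT4, SOX2 and NANOG, 3 rose and 1 fell in clone 8, with a median of -0.44, beside 8% higher and 8.6% lower among all genes. Klf5, a naive-state factor, rose by 1.90 (SE 0.30, adjusted p = 0.00929), Zfp42, which encodes REX1, by 1.19 (SE 0.21, adjusted p = 0.0110) and Jarid2, a Polycomb cofactor, by 0.87 (SE 0.14, adjusted p = 0.0102). Dppa5a fell by 0.78 (SE 0.17, adjusted p = 0.0185). Zfp42 was at 82.8 and 60.0 CPM in vehicle clone 4, 84.4 and 80.3 CPM in 4OHT clone 4, 24.6 and 34.6 CPM in vehicle clone 8 and 72.1 and 62.8 CPM in 4OHT clone 8. Again the 2 clone 8 vehicle pools stood apart, here as the lowest. Both Klf5 and Zfp42 are also expressed in extraembryonic ectoderm, whose markers moved the same way. The part of that tissue in their rises was not tested.

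Of 14 genes of the LIN28 and let-7 axis, 5 rose and 1 fell in clone 8, with a median of 0.24, against the same 8% and 8.6% of all genes, which also stand beside the paralogs and ERK response genes that follow. Tut7, a uridylyl transferase that tags let-7 precursors, rose by 1.06 (SE 0.19, adjusted p = 0.0111). Its response differed between clones by 1.17 (SE 0.26, adjusted p = 0.0494), as that of Lin28b did. Tut4, a uridylyl transferase of the same list, went the other way in clone 8 without passing. It was at 34.7 to 42.7 CPM with vehicle and 21.0 to 30.5 CPM with 4OHT. Dgcr8, of the microprocessor, rose by 0.83 (SE 0.17, adjusted p = 0.0152), and Xpo5, which exports precursors, by 0.71 (SE 0.15, adjusted p = 0.0177). Dicer1 fell by 0.72 (SE 0.18, adjusted p = 0.0287). Among 9 tested paralogs of the POU, SOX and SALL members, Pou3f1, an epiblast POU factor, fell by 0.67 (SE 0.14, adjusted p = 0.0178) and Pou2f1 rose by 0.61 (SE 0.15, adjusted p = 0.0269). Of 10 ERK response genes 4 rose and none fell in clone 8, with a median of 0.70; Egr1 rose by 5.25 (SE 0.73, adjusted p = 0.00834) and Fos by 2.61 (SE 0.52, adjusted p = 0.0148). In clone 4 Egr1 was at 2.32 (SE 0.64, adjusted p = 0.234). The response of Fos, lower with 4OHT in clone 4, differed between the clones by 3.26 (SE 0.71, adjusted p = 0.0476). Over both clones none of these lists had a called gene. Without vehicle clone 8 replicate 1 no gene of the whole table passed in clone 8 or in the difference between clones, so none of the list calls in those comparisons held there.

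**Figure D5:**
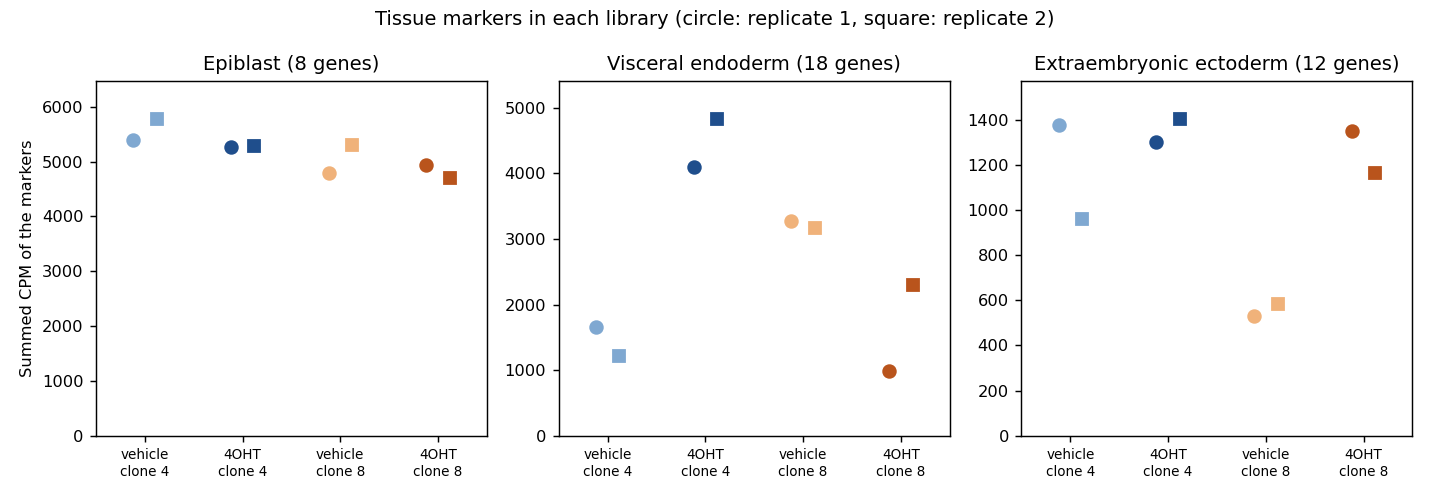
Summed CPM of markers of epiblast, visceral endoderm and extraembryonic ectoderm in each library; circles are replicate 1 and squares replicate 2. Epiblast sums run from 4704 to 5776 CPM, of which Dnmt3b alone gave 2409 to 3188 CPM. Visceral endoderm sums move in opposite directions in the clones, and extraembryonic ectoderm sums are lowest in the 2 vehicle pools of clone 8.

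The neighbouring layers moved with the same contrasts. Visceral endoderm markers summed to 1664 and 1223 CPM in vehicle clone 4, 4094 and 4828 CPM in 4OHT clone 4, 3270 and 3169 CPM in vehicle clone 8, and 979.9 and 2294 CPM in 4OHT clone 8. Of the 18, 0 passed in clone 4 (median 1.71), 5 were lower in clone 8 (median -0.94), beside 8.6% of all genes, and 9 had a lower response in clone 8 than in clone 4, beside 1.75%. That is the contrast in which Lin28b was called. Extraembryonic ectoderm markers summed to 1375 and 959.97 CPM in vehicle clone 4, 1301 and 1403 CPM in 4OHT clone 4, 529 and 585 CPM in vehicle clone 8, and 1351 and 1164 CPM in 4OHT clone 8. Of the 12, 10 were higher with 4OHT in clone 8 (median 1.81), beside 8% of all genes, in the contrast where Pou5f1, Sox2, Utf1 and L1td1 fell. In clone 4 none passed (median 0.18). No marker of either layer was at 0 counts in any library. Primitive streak markers summed to 49.2 to 184 CPM, decidua markers to 2.39 to 6.24 CPM and blood markers to 0.143 to 19.0 CPM. The part of these tissues in the members' responses was not tested.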

How the data were processed

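The deposited table gives unnormalized counts of reads for each Ensembl gene in each library; its values are whole numbers and the library totals differ. Demultiplexing with bcl2fastq 2.19.1, alignment with STAR 2.5.3a and the build mm10 are named in the submitters' processing notes; the counting program, annotation release and use of strand are not given in the sources used here, so reads of overlapping antisense genes cannot be told apart. Per the labels' protocols, a kit for low RNA input was used on pooled epiblasts.

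Of 52636 identifiers 52403 matched a symbol. Low genes were removed with filterByExpr, given the 4 groups (minimum count 10; 18321 genes left). Counts were scaled by TMM and tested with edgeR 4.0.16 in R 4.3.3 by its quasi-likelihood test (glmQLFit, glmQLFTest), with Benjamini-Hochberg adjustment over all tested genes and a threshold of 0.05. The responses in each clone, their difference and the comparison of vehicle libraries were contrasts of a 4-group model in which all libraries inform the dispersion; the response over both clones came from an additive fit of clone and treatment. SE is the log2 fold change divided by the square root of F. CPM use TMM-scaled totals, and log2 CPM a prior count of 2. glmQLFit ran with its default for the legacy option, chosen after results with both settings had been seen; the calls on the 10 genes were the same under each. Replicates differed by far more than counting noise (chi-square per degree of freedom 21.3 to 68.1), so no library was counted as a duplicate. The procedure was tested on simulated counts.

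Gene positions and exonic lengths are from GENCODE M21 (GRCm38, the same assembly as mm10). Promoter windows are from RefSeq on GRCm38.p6, which had entries for 7 of the 10 genes.

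The 10 genes, the gene and marker lists and the tests were chosen with earlier results of these data known. Named in the text were the 10 genes, at most 4 genes per list and comparison with the lowest p among those past the threshold, defining tissue markers, Egr1 and Dusp4, the 3 genes most like Pou5f1, Sox2 and Nanog, and overlapping genes or copies. The alternatives tried were DESeq2 1.42.0, scaling by RLE or by library totals, no filter on low counts, the replicate number as a block, no clone term, the mean of the within-clone responses, the longest transcript as length and leaving out each library; the other legacy setting and counts thinned to the smallest library total were added after seeing the data.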

Additional observations from a re-analysis of the deposited data

Results flagged for a closer look

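Within the 4 libraries of a condition, 3 end values stood apart from the rest of their group by Dixon's test at the 95% level, among 20 groups examined; chance flags about 1 in 20. Dppa2 was at 24.25 CPM in vehicle clone 8 replicate 1, the lowest of the 4 vehicle libraries, of which the other 3 lay between 61.4 and 64.9 CPM. Dppa4 was at 77.08 CPM in 4OHT clone 8 replicate 2, below the 3 others at 90.6 to 91.9 CPM. L1td1 was at 97.87 CPM in 4OHT clone 4 replicate 2, below 133 to 142 CPM in the others.

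The response of Lin28b differed between the clones by 1.0239 on the log2 scale, tested by the interaction of clone and treatment in edgeR's quasi-likelihood test (adjusted p = 0.0451): both 4OHT libraries were higher than both vehicle libraries in clone 8 and lower in clone 4. Leaving out 1 library at a time, Lin28b no longer passed in 6 of 8 cases (adjusted p up to 0.191).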

How the results depend on the processing

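The replicate numbers gave no sign of pairing the samples (correlation of same-numbered deviations 0.0947 in clone 4 and -0.0101 in clone 8). With 2 libraries per group, such a correlation cannot show that same-numbered samples were unrelated. With the replicate number as a block, genes called over the whole table numbered 0 in clone 4 (7 without it) and 0 over both clones (1 without it), and members called numbered 3 in clone 8 (Pou5f1, Sox2 and Lin28b, instead of 5) and 0 for the difference between clones (instead of 1). The comparison of the vehicle libraries is between clones and has no blocked fit. Without the filter on low counts, genes called numbered 728 in clone 4, 4263 in clone 8 (3041 with it), 2114 for the difference between clones (519 with it), 1337 over both clones and 2901 between the vehicle libraries (1534 with it). Members called then numbered 2 in clone 4 (Pou5f1 and Nanog, none with it), 7 in clone 8 (Nanog and Dppa4 added), 2 for the difference (Nanog and Lin28b), 4 over both clones (Pou5f1, Sox2, Nanog and L1td1) and 3 between the vehicle libraries (Sox2, Dppa4 and Dppa2, instead of 1). With DESeq2 the genes called numbered 466, 4277, 1806, 1024 and 3066 in the same order, and members called 1 in clone 4 (Nanog), 6 in clone 8 (Dppa4 added), 4 over both clones and 2 between the vehicle libraries (Sox2 and Dppa4). The mean of the within-clone responses called 1063 genes and 4 members. The other legacy setting gave 16 genes in clone 4, and thinned counts gave 29 there, 3162 in clone 8 and 0 over both clones. Library totals turned the differences between clones of Sall4 to 0.009032 and of Lin28a to 0.01778, moved the higher share of calls in clone 8 from 48.2% to 66.2% and that of the difference from 38.2% to 52.1%, and called Dppa4 in clone 8 (0.76). The cause of these shifts was not tested.

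Leaving out each library in turn, genes called ran from 0 to 267 in clone 4, 0 to 3179 in clone 8, 0 to 1205 for the difference, 0 to 1 over both clones and 0 to 2518 between the vehicle libraries. Members called ran from 0 to 5 in clone 8, 0 to 1 for the difference and 0 to 3 between the vehicle libraries. Log2 values that changed sign ran as follows. In clone 4 Sall4 ran from -0.1567 to 0.08452. In clone 8 Lin28a ran from -0.03007 to 0.2232 and Dppa2 from -0.1478 to 1.206. For the difference between clones Sall4 ran from -0.2561 to 0.01398, Lin28a from -0.2615 to 0.03009, Dppa2 from -0.5341 to 0.8197 and L1td1 from -0.3635 to 0.08528. Over both clones Lin28b ran from -0.06551 to 0.2777. Between the vehicle libraries Nanog ran from -0.6842 to 0.4686, Sall4 from -0.2147 to 0.02705 and Lin28a from -0.2429 to 0.02857. Where a group is left with 1 library, that library is assumed to vary like the other groups. Each of these fits also repeated the filter on low counts, which then kept 18672 to 20731 genes. The part of the missing library in a lost call can therefore not be told apart. The values that passed as reported (Pou5f1, Sox2, Lin28b, Utf1 and L1td1 in clone 8, Lin28b in the difference, Sox2 between the vehicle libraries) kept their sign under every setting run.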
